A study of Rattus norvegicus with 12 samples.

Results

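Interferon-stimulated effector genes, the genes that cells switch on in response to interferon and whose products act against viruses and other intracellular microbes, were followed in rat kidney fibroblasts. A list of 50 gene names was drawn up from nucleic acid sensors, the OAS, IFIT, MX, GBP and PARP families, the ISG15 system with ubiquitin ligases, and other effectors. Of these, 48 had a row in the deposited normalized counts, which hold 14275 genes, and all 48 passed the filter on low counts of the larger raw count table and are among the 14601 genes tested. Rigi and its older name Ddx58, which both stand for the RNA sensor RIG-I, had no row. The cells were NRK-49F, an established fibroblast line from normal rat kidney. They had been transfected with the empty vector pcDNA3.1 or with a plasmid for human HDAC1 with a Flag tag, so the deacetylase was added on top of the rat enzyme. Cells were then kept for 24 hours in medium with 0.5% FBS (vehicle) or in the same medium with 2 ng/ml TGFB1. The 4 groups of 3 libraries are called vector vehicle, HDAC1 vehicle, vector TGFB1 and HDAC1 TGFB1. Libraries were made from poly(A) RNA. Nothing in the labels ties the replicates to separate cultures. The p-values therefore speak only of the spread between these libraries, which may be technical.

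Type I interferon binds its receptor, the kinases JAK1 and TYK2 phosphorylate STAT proteins, and these join IRF9 in a complex that binds the interferon-stimulated response element (ISRE) in promoters. The products of the induced genes sense foreign nucleic acid, degrade or trap viral RNA, restrict virus release, or tag proteins with the ubiquitin-like protein ISG15. Many of them are also expressed at a basal level in fibroblasts that have met no virus. HDAC1 removes acetyl groups from histones and other proteins, and TGFB1 is a cytokine that drives fibroblasts to become contractile, matrix-depositing myofibroblasts.

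Library totals ran from 18397093 to 36652084 counts. Levels are CPM, the usual depth-corrected count scale, after the library scaling of edgeR. The row named Hdac1 was higher in every HDAC1 library than in every vector library, at 212, 205 and 212 CPM in the vector vehicle libraries, 428, 375 and 460.4 in the HDAC1 vehicle libraries, 259, 250.2 and 290.4 in the vector TGFB1 libraries and 501, 416 and 474 in the HDAC1 TGFB1 libraries. The row named Hdac1l, an Hdac1-like gene of the rat annotation, was at 0.530, 15.1 and 9.23 CPM in the vector vehicle libraries, 1297, 852 and 1367 in the HDAC1 vehicle libraries, 8.09, 8.65 and 11.2 in the vector TGFB1 libraries and 1211, 802 and 1257 in the HDAC1 TGFB1 libraries. Both rows were lowest in replicate 2 among the 3 libraries of each HDAC1 group. The plasmid carries human HDAC1, and whether its reads were counted in these rat rows was not tested. Of 11 fibroblast markers 8 had a row, and their summed level was 11200 to 12885 CPM in the vector vehicle group, 8968 to 10493 in the HDAC1 vehicle group, 13922 to 16893 in the vector TGFB1 group and 11858 to 13963 in the HDAC1 TGFB1 group. It was thus lower in HDAC1 than in vector libraries in vehicle, as the members were, and its part in their levels was not tested. In vehicle the mean of Col1a1 was 5200 CPM with vector and 3375 with HDAC1, and that of Col1a2 was 2804 and 1935. Vim went the other way, at 2691 with vector and 3138 with HDAC1. Thy1, Lum and Fap had no row, and Dcn stayed at or below 0.857 CPM. Among 9 leukocyte markers, Ptprc, Adgre1, Itgam, Cd3e and Cd79a had no row. The summed level of the other 4 was 178 to 183 CPM in the vector vehicle group, 134 to 146 in the HDAC1 vehicle group, 219.6 to 245 in the vector TGFB1 group and 194 to 199 in the HDAC1 TGFB1 group, nearly all of it Cd14 and Itgax. Tubule and endothelial markers summed to at most 1.87 and 5.31 CPM. Transcripts of heart and brain were also present: the summed level of 12 heart markers and of the 9 of 10 brain markers with a row was 68.5 CPM in vector vehicle replicate 1 against 384 and 414 in the other two libraries of that group. It was 248 to 444 in the HDAC1 vehicle group, 454 to 546 in the vector TGFB1 group and 151 to 167 in the HDAC1 TGFB1 group. In bulk RNA such as this, fewer cells of a type and less RNA per cell cannot be told apart.

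The summed level of the 48 genes was lower with HDAC1, lower still with TGFB1, and lowest with both. It was 21409 ± 646 CPM (SD, n = 3) in the vector vehicle group, 17193 ± 1349 in the HDAC1 vehicle group, 13723 ± 204 in the vector TGFB1 group and 11568 ± 678 in the HDAC1 TGFB1 group. The ranges of the 4 groups did not overlap. Against the mean of the vector vehicle group, the median of the 48 genes stood at -0.31, -0.14 and -0.28 on the log2 scale in the 3 HDAC1 vehicle libraries. In the same order of replicates it stood at -0.57, -0.55 and -0.53 in the vector TGFB1 libraries and at -0.84, -0.68 and -0.80 in the HDAC1 TGFB1 libraries. The smallest departure in each HDAC1 group belonged to replicate 2, the library with the lowest Hdac1 and Hdac1l.

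**Figure D1:**
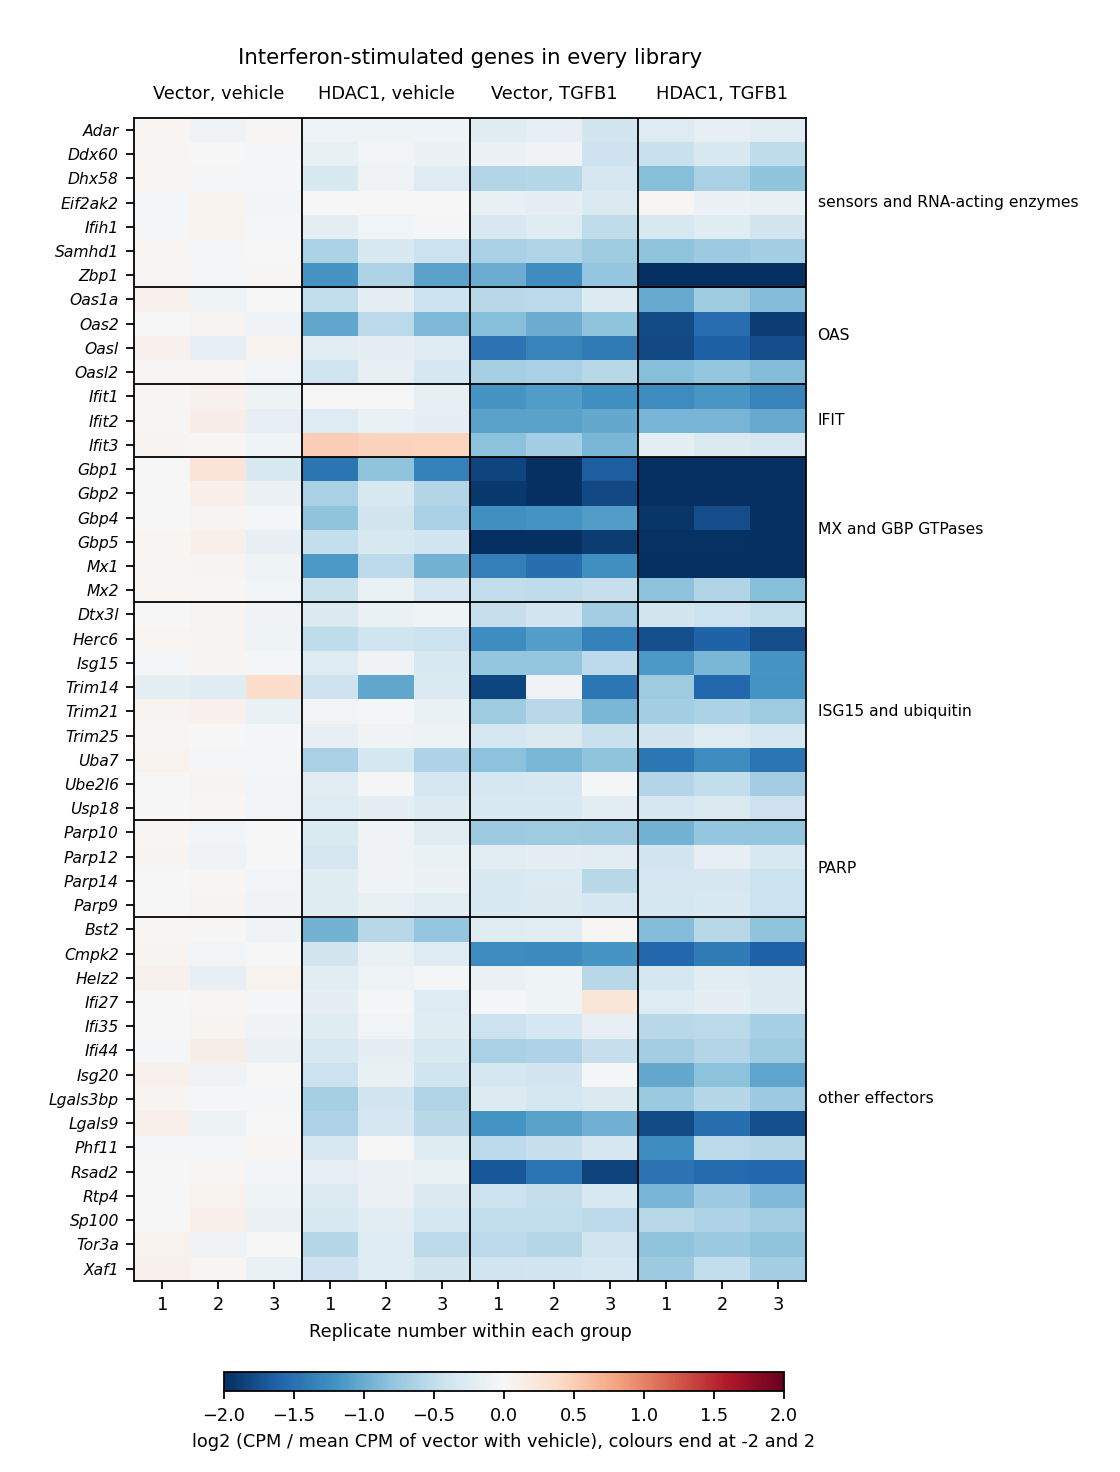
Heat map of the 48 interferon-stimulated genes (rows, ordered by role) in the 12 libraries (columns, by group and replicate number). Colour gives log2 of the CPM over the mean CPM of the vector vehicle group, blue for lower and red for higher, and ends at -2 and 2. Blue deepens from the HDAC1 vehicle to the vector TGFB1 and HDAC1 TGFB1 columns for most genes, Ifit3 is red with HDAC1 in vehicle, and Bst2 is pale in the vector TGFB1 columns.

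All tests came from 1 edgeR quasi-likelihood fit to the 12 libraries, and calls were made where the p-value, adjusted by the method of Benjamini and Hochberg for all 14601 genes, was under 0.05. Effects are log2 fold changes, where -1 is a fall to 50% of the level. HDAC1 in vehicle lowered 27 of the 48 genes and raised 1 (Ifit3), with a median of -0.23 against -0.0082 over all genes tested. The background is that 7.32% of all genes tested were called lower and 6.64% higher. Without HDAC1 vehicle replicate 1 the number lowered was 17 (3.51% of all genes), and without replicate 3 it was also 17 (3.84%). With TGFB1 present, HDAC1 lowered 24 and raised Ifit3, with a median of -0.26 against -0.0015, where 4.36% of all genes tested were called lower and 2.17% higher. Of the genes lowered by HDAC1, 19 were shared by the vehicle and the TGFB1 comparisons, which is 70.4% of the 27 and 79.2% of the 24. The matching overlap was not counted over all genes tested, so these shares have no background here. By DESeq2 the split of all genes in the presence of TGFB1 was 747 lower and 594 higher, against 637 and 317 by edgeR. Leaving out some libraries reduced the calls here over all genes as well as among the members. Without vector vehicle replicate 1 the calls over all genes were instead 780 lower and 471 higher. The number of members lowered was 15 without vector TGFB1 replicate 3 (2.21% of all genes), 12 without HDAC1 TGFB1 replicate 1 (1.14%) and 12 without HDAC1 TGFB1 replicate 3 (1.41%). With the summed level of the heart and brain markers as a covariate it was 8, where 0.562% of all genes were called lower, and the median was -0.25. That level does not overlap between the vector TGFB1 and HDAC1 TGFB1 groups, so in this comparison it and HDAC1 cannot be told apart.

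TGFB1 lowered nearly all of the 48. With the empty vector 45 of 48 were called lower and 0 higher, with a median of -0.50 against 0.01 over all genes, where 25% of genes were called lower and 25.9% higher. In cells with HDAC1 39 were called lower and 0 higher, with a median of -0.55 against -0.0194, where 24.2% of genes were called lower (3532 genes) and 24.9% higher (3638 genes). Under upper quartile scaling this last split of all genes was 4276 lower and 2842 higher. All 39 were among the 45, an overlap not counted over all genes. The summed level of the heart and brain markers does not overlap between vehicle and TGFB1 libraries, with vector or with HDAC1. It was higher with TGFB1 in vector cells and lower with TGFB1 in HDAC1 cells. In both comparisons it and TGFB1 cannot be told apart. As a covariate it ended 5 of the 45 calls and 3 of the 39, where 20.4% and 20.5% of all genes were called lower. With HDAC1 and TGFB1 together, set against neither, 47 of 48 were called lower, with a median of -0.76 against -0.0323, where 28.2% of genes were called lower and 28.7% higher. The fall was 2-fold or more for 16 of the 47, where 7.86% of all genes were called lower by as much, and Eif2ak2 was the gene not called (-0.07, adjusted p = 0.342). For Helz2 this call was lost without vector vehicle replicate 1 or replicate 3 (adjusted p = 0.0785 to 0.11), for Ifi27 without vector vehicle replicate 2 (0.0608), and for Trim14 without vector vehicle replicate 3, HDAC1 TGFB1 replicate 2 or HDAC1 TGFB1 replicate 3 (0.0851 to 0.167). The call of Trim14 was also lost with the DESeq2 Wald test, no filter on low counts, the replicate block and the heart and brain covariate (adjusted p = 0.0504 to 0.0617).

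If the libraries are independent, the most precise estimates for each gene are 2 averages. They are the average HDAC1 effect, over vehicle and TGFB1, and the average TGFB1 effect, over vector and HDAC1. HDAC1 on average lowered 33 of 48 and raised 1, where 10.7% of all genes tested were lower and 9.51% higher. TGFB1 on average lowered 46 and raised 0, where 29.9% were lower and 30.9% higher. These averages use the same 12 libraries and count each as independent, which the labels do not establish. Sorted by them, 31 genes (64.6%) were lowered by both factors, against 7.09% of all genes tested. Those lowered by TGFB1 and not called for HDAC1 numbered 14 (29.2%, against 21.9% of all genes). Bst2 and Ifi27 were lowered by HDAC1 and not called for TGFB1 (4.17% against 2.05%), and Ifit3 was raised by HDAC1 and lowered by TGFB1 (2.08% against 0.911%). Of the 33 genes lowered by HDAC1, 27 kept the call under each of the 19 alternatives run. The exceptions were Ddx60, Gbp5, Usp18, Parp9, Parp10 and Ifi44, taken up with their families. In the separate HDAC1 comparisons fewer calls were kept. Under each of 20 alternatives, 17 of the 27 calls in vehicle and 8 of the 24 with TGFB1 held.

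**Figure D2:**
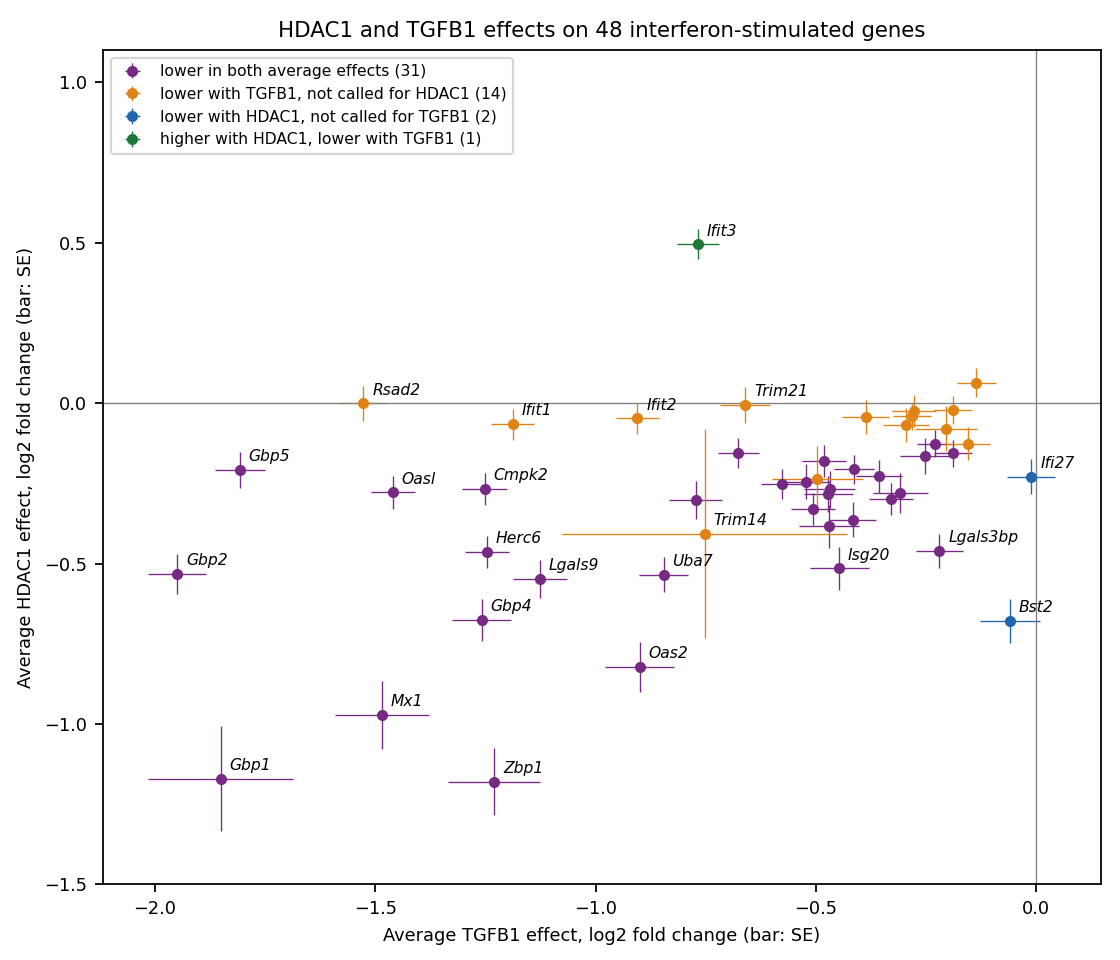
Average TGFB1 effect (horizontal axis, log2 fold change) against average HDAC1 effect (vertical axis, log2 fold change) for the 48 genes, with bars of 1 SE. Colours give the 4 patterns of calls. The 31 genes lowered by both factors lie left of and below 0, Gbp1, Zbp1 and Mx1 are the lowest on the HDAC1 axis, Rsad2 and Ifit1 lie along 0 on that axis, and Ifit3 stands alone above it.

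The promoters of members that show these patterns are printed because the ISRE is the sequence through which the interferon complex acts. Each line gives the 250 bases before the gene start, 5′ to 3′ on the strand of the gene, from RefSeq on the rat build GRCr8. Capitals mark the ISRE core on either strand, which was searched as GAAA, any 2 bases and GAAA again, and which on the reverse strand reads TTTC, any 2 bases and TTTC. Overlapping matches run together. Uba7 (chr8:117543652-117543901, plus strand), Gbp4 (chr2:233978236-233978485, plus strand) and Herc6 (chr4:88896994-88897243, minus strand) were lowered by both factors and came first among members with a window when ranked by the larger of their adjusted p-values for the average HDAC1 and TGFB1 effects. Ifit3 (chr1:241527076-241527325, plus strand) was raised by HDAC1. Bst2 (chr16:18254968-18255217, minus strand) and Ifi27 (chr6:128355062-128355311, plus strand) were not called for TGFB1 and were chosen after their values were seen.
Uba7: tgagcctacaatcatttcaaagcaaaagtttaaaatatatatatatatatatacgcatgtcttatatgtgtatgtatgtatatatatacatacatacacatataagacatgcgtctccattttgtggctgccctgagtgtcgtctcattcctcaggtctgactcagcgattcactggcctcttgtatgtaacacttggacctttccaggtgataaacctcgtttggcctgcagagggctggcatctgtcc
Gbp4: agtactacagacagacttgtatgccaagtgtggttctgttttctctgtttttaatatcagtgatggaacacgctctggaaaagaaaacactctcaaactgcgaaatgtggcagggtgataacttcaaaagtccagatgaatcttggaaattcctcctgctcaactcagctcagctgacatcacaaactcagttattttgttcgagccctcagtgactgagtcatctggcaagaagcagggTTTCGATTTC
Herc6: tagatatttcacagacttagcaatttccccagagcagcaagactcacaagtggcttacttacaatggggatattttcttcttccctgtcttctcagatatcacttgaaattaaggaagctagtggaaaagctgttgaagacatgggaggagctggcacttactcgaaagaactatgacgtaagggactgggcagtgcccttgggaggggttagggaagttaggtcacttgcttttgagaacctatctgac
Ifit3: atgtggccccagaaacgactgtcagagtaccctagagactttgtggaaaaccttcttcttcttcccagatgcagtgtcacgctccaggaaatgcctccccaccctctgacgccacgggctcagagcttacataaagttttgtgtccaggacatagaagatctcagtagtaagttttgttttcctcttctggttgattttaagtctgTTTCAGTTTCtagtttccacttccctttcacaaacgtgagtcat
Bst2: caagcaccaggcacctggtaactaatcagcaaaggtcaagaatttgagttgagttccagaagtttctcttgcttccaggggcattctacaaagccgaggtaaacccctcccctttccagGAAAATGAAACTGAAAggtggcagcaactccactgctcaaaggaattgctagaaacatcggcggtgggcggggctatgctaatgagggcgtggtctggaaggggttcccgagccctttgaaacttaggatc
Ifi27: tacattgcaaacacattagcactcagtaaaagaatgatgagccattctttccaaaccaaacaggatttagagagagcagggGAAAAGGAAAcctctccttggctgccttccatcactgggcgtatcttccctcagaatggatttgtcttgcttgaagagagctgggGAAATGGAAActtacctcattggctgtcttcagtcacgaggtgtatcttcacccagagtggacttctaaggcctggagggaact
Counting back from -1 at the base before the gene start, the match in Gbp4 began at -10 and that in Ifit3 at -44, both on the reverse strand. Bst2 had overlapping matches from -131 and -125, and Ifi27 had matches from -169 and -84, all on the forward strand. The windows of Uba7 and Herc6 held no match, which says only that these letters are not in these 250 bases. Over windows of 300 bases, which add the first 50 bases of the gene, 22 of the 36 members with a window held the core (61.1%), against 3.92% of 33469 windows of the table. The same repeat with a spacing of 3 bases in place of 2, on either strand, was found in 8.33% of the 36 and in 2.86% of all windows. The STAT dimer core, searched as TTC, any 3 bases and GAA, reads the same on both strands and can share bases with an ISRE core. It was in 4 of the 36 (11.1%) and in 8.87% of all windows. The ISRE core was present in 12 of 23 members lowered by both factors, in 7 of 10 lowered by TGFB1 and not called for HDAC1, in both Bst2 and Ifi27, and in Ifit3, so it was found in every pattern. A match is a description of the sequence and was not tested for binding.

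The nucleic acid sensors and RNA-acting enzymes held 7 members. TGFB1 on average lowered all 7 and HDAC1 lowered 4, and the interaction was called for 0 of them. Zbp1, a sensor of left-handed nucleic acid that can start necroptosis, fell with each factor. Its level was 35.5, 33.9 and 35.5 CPM in the vector vehicle libraries, 15.4, 22.8 and 16.6 in the HDAC1 vehicle libraries, 17.6, 14.8 and 20.3 in the vector TGFB1 libraries and 6.01, 7.86 and 5.70 in the HDAC1 TGFB1 libraries. The HDAC1 vehicle and vector TGFB1 ranges overlapped each other, and all HDAC1 TGFB1 libraries were below every other library. The average effects on Zbp1 were -1.18 ± 0.10 (SE; adjusted p = 1.44e-06) for HDAC1 and -1.23 ± 0.10 (SE; adjusted p = 1.19e-08) for TGFB1, and with both it was 5.32-fold lower than with neither. Dhx58 (LGP2), which tunes the RIG-I-like receptors, was at 264, 254 and 252 CPM in the vector vehicle libraries, 207, 243 and 214 in the HDAC1 vehicle libraries, 172, 172 and 204 in the vector TGFB1 libraries and 142, 163 and 147 in the HDAC1 TGFB1 libraries. No 2 groups overlapped for Dhx58, and the average effects were -0.24 ± 0.05 (SE; adjusted p = 0.00288) for HDAC1 and -0.52 ± 0.05 (SE; adjusted p = 3.75e-08) for TGFB1. Samhd1, a hydrolase that depletes the nucleotides needed for reverse transcription, was at 46.3, 44.2 and 45.0 CPM in the vector vehicle libraries, 29.1, 36.4 and 33.7 in the HDAC1 vehicle libraries, 28.8, 29.6 and 27.6 in the vector TGFB1 libraries and 25.7, 27.2 and 28.1 in the HDAC1 TGFB1 libraries. Here TGFB1 libraries with and without HDAC1 overlapped. The HDAC1 effect on Samhd1 was -0.45 ± 0.08 (SE; adjusted p = 0.00053) in vehicle and -0.08 ± 0.08 (SE; adjusted p = 0.585) with TGFB1, and the difference between these effects was not called (0.37, adjusted p = 0.14).

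Ifih1 (MDA5), the sensor of long double-stranded RNA, Adar, which edits adenosine to inosine in such RNA, and Eif2ak2 (PKR), the kinase that halts translation when it binds it, were lowered by TGFB1 and not called for HDAC1. Their average TGFB1 effects were small, at -0.28, -0.19 and -0.14. The average HDAC1 effects were -0.02, -0.02 and 0.06, with 95% intervals of -0.13 to 0.08, -0.11 to 0.07 and -0.03 to 0.16. The RNA helicase Ddx60 was lowered by both factors, at -0.16 for HDAC1 and -0.25 for TGFB1. Its HDAC1 call (adjusted p = 0.0443) was lost when any library but HDAC1 vehicle replicate 2, vector TGFB1 replicate 3 or HDAC1 TGFB1 replicate 2 was left out (adjusted p = 0.0957 to 0.168). It was also lost with DESeq2 size factors, the DESeq2 Wald test, a minimum mean of 1 CPM and the heart and brain covariate (adjusted p = 0.0515 to 0.0652).

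OAS enzymes make short 2′-5′ linked adenylate chains that activate RNase L, and the OAS-like proteins share their fold. All 4 members fell with each factor on average. Oas2 was at 104, 107 and 98.7 CPM in the vector vehicle libraries, 50.5, 71.5 and 55.6 in the HDAC1 vehicle libraries, 57.0, 51.8 and 58.9 in the vector TGFB1 libraries and 29.9, 35.9 and 28.0 in the HDAC1 TGFB1 libraries. The HDAC1 vehicle and vector TGFB1 ranges of Oas2 overlapped each other, and the HDAC1 TGFB1 libraries were below all others. Its average effects were -0.82 ± 0.08 (SE; adjusted p = 2.91e-06) for HDAC1 and -0.90 ± 0.08 (SE; adjusted p = 1.71e-08) for TGFB1, and it was 3.3-fold lower with both. Oasl was at 839, 709 and 832 CPM in the vector vehicle libraries, 684, 689.7 and 663 in the HDAC1 vehicle libraries, 287, 313 and 298 in the vector TGFB1 libraries and 227, 255 and 231 in the HDAC1 TGFB1 libraries. The 4 groups of Oasl did not overlap, and its average effects were -0.28 ± 0.05 (SE; adjusted p = 0.000473) for HDAC1 and -1.46 ± 0.05 (SE; adjusted p = 9.89e-16) for TGFB1. Oasl2 was at 533, 541 and 508 CPM in the vector vehicle libraries, 400.5, 471 and 419 in the HDAC1 vehicle libraries, 332, 337 and 359 in the vector TGFB1 libraries and 292, 308 and 289.6 in the HDAC1 TGFB1 libraries. Its groups did not overlap either, with average effects of -0.25 ± 0.05 (SE; adjusted p = 0.000663) for HDAC1 and -0.58 ± 0.05 (SE; adjusted p = 8.61e-10) for TGFB1. For Oas1a the average effects were -0.38 and -0.47. Taken separately, the HDAC1 effect on Oasl2 was not called with TGFB1 (-0.21, adjusted p = 0.0635). The HDAC1 call of Oasl was lost under 8 alternatives in vehicle and under 3 with TGFB1. That of Oas1a was lost under 3 in vehicle and under 4 with TGFB1. How reads that fit more than 1 gene were counted is not given in the sources used here, so values of close family members such as the OAS, MX and GBP genes are uncertain to that extent.

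Among the IFIT proteins, IFIT1 binds RNA that lacks the cap methylation of host messengers. TGFB1 lowered all 3 members on average, whereas HDAC1 lowered 0 of them and raised 1. Ifit1 was at 212, 222 and 195 CPM in the vector vehicle libraries, 208, 212 and 188 in the HDAC1 vehicle libraries, 92.2, 96.7 and 90.0 in the vector TGFB1 libraries and 87.3, 93.4 and 82.9 in the HDAC1 TGFB1 libraries. With and without HDAC1 its ranges overlapped in vehicle and with TGFB1. The average effect of HDAC1 on Ifit1 was -0.07 ± 0.05 (SE; adjusted p = 0.356) with a 95% interval of -0.17 to 0.03, beside -1.19 ± 0.05 (SE; adjusted p = 1.14e-14) for TGFB1. Ifit2 was at 459, 496 and 406 CPM in the vector vehicle libraries, 378, 414 and 396 in the HDAC1 vehicle libraries, 215, 217 and 223 in the vector TGFB1 libraries and 239, 237 and 226 in the HDAC1 TGFB1 libraries. HDAC1 and vector libraries overlapped for Ifit2 in vehicle, and with TGFB1 all 3 HDAC1 libraries were slightly above the vector libraries. The HDAC1 effect on Ifit2 was -0.20 in vehicle (adjusted p = 0.0587) and 0.10 with TGFB1 (adjusted p = 0.402). Its average HDAC1 effect was -0.05 ± 0.05 (SE; adjusted p = 0.527), with a 95% interval of -0.15 to 0.05, and its average TGFB1 effect was -0.91 ± 0.05 (SE; adjusted p = 1.12e-12).

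Ifit3 was the member that rose with HDAC1. Its level was 289.9, 286 and 264 CPM in the vector vehicle libraries, 393, 385 and 381 in the HDAC1 vehicle libraries, 159, 175 and 149 in the vector TGFB1 libraries and 244, 228 and 222 in the HDAC1 TGFB1 libraries. The 4 groups did not overlap: HDAC1 vehicle was highest, then vector vehicle, HDAC1 TGFB1 and vector TGFB1. HDAC1 raised Ifit3 by 0.47 ± 0.07 (SE; adjusted p = 8.05e-05) in vehicle and by 0.52 ± 0.07 (SE; adjusted p = 0.000135) with TGFB1, and TGFB1 lowered it with vector (-0.80 ± 0.07 (SE; adjusted p = 3.13e-09)) and with HDAC1 (-0.74 ± 0.07 (SE; adjusted p = 9.87e-09)). With both factors Ifit3 was at 82.7% of the vector vehicle mean, against 41.9% for Ifit1 and 51.6% for Ifit2. These calls for Ifit3 held under every alternative run.

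The large GTPases had the lowest median of the 7 role groups when both factors were set against neither, at -2.24. Guanylate-binding proteins coat the vacuoles of intracellular bacteria and parasites, and MX proteins trap viral nucleocapsids. Both factors lowered all 6 members on average, and 5 of 6 were at least 2-fold lower with HDAC1 and TGFB1 together. Gbp2 was at 641, 686 and 591 CPM in the vector vehicle libraries, 409.7, 512 and 425 in the HDAC1 vehicle libraries, 168, 153 and 183 in the vector TGFB1 libraries and 108, 126 and 108 in the HDAC1 TGFB1 libraries, with no overlap between groups. The average effects on Gbp2 were -1.95 ± 0.07 (SE; adjusted p = 1.55e-15) for TGFB1 and -0.53 ± 0.06 (SE; adjusted p = 1.08e-05) for HDAC1. Gbp4 was at 263, 275 and 256 CPM in the vector vehicle libraries, 151, 205 and 169 in the HDAC1 vehicle libraries, 113, 116 and 122 in the vector TGFB1 libraries and 68.8, 77.6 and 61.1 in the HDAC1 TGFB1 libraries. Its groups did not overlap, and its effects were -0.68 ± 0.07 (SE; adjusted p = 2.5e-06) for HDAC1 and -1.26 ± 0.07 (SE; adjusted p = 6.97e-12) for TGFB1. Gbp5, which promotes inflammasome assembly, was at 101, 106 and 88.3 CPM in the vector vehicle libraries, 70.6, 79.3 and 75.2 in the HDAC1 vehicle libraries, 23.8, 24.0 and 26.5 in the vector TGFB1 libraries and 25.2, 25.0 and 22.9 in the HDAC1 TGFB1 libraries. In vehicle the HDAC1 libraries of Gbp5 were below the vector libraries, but with TGFB1 they overlapped. Its HDAC1 effect was -0.39 ± 0.07 (SE; adjusted p = 0.00117) in vehicle and -0.02 ± 0.08 (SE; adjusted p = 0.906) with TGFB1, and its average TGFB1 effect was -1.81 ± 0.06 (SE; adjusted p = 2.24e-16). The average HDAC1 effect on Gbp5 (-0.21 ± 0.06 (SE; adjusted p = 0.0121)) was not called without vector vehicle replicate 2 or without HDAC1 vehicle replicate 1 (adjusted p = 0.0508 and 0.0585).

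Gbp1 changed most of the 48 when both factors were set against neither. It was at 80.6, 97.0 and 65.5 CPM in the vector vehicle libraries, 29.4, 46.3 and 31.6 in the HDAC1 vehicle libraries, 22.7, 18.3 and 25.9 in the vector TGFB1 libraries and 8.72, 12.1 and 8.70 in the HDAC1 TGFB1 libraries, and no groups overlapped. With both factors it was 8.13-fold lower (-3.02 ± 0.24 (SE; adjusted p = 1.83e-06)), at 12.2% of the vector vehicle mean, beside 44.1% with HDAC1 and 27.5% with TGFB1. Mx1 was at 1735, 1763 and 1598 CPM in the vector vehicle libraries, 770.2, 1179 and 878 in the HDAC1 vehicle libraries, 658, 599 and 723 in the vector TGFB1 libraries and 281, 368 and 279 in the HDAC1 TGFB1 libraries, again without overlap, and was 5.49-fold lower with both factors (-2.46 ± 0.16 (SE; adjusted p = 3.77e-08)). Mx2 fell less, with average effects of -0.28 for HDAC1 and -0.47 for TGFB1. The spread within the HDAC1 groups was wide for Gbp1 and Mx1, and replicate 2 was the highest library of both HDAC1 groups for each gene.

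**Figure D3:**
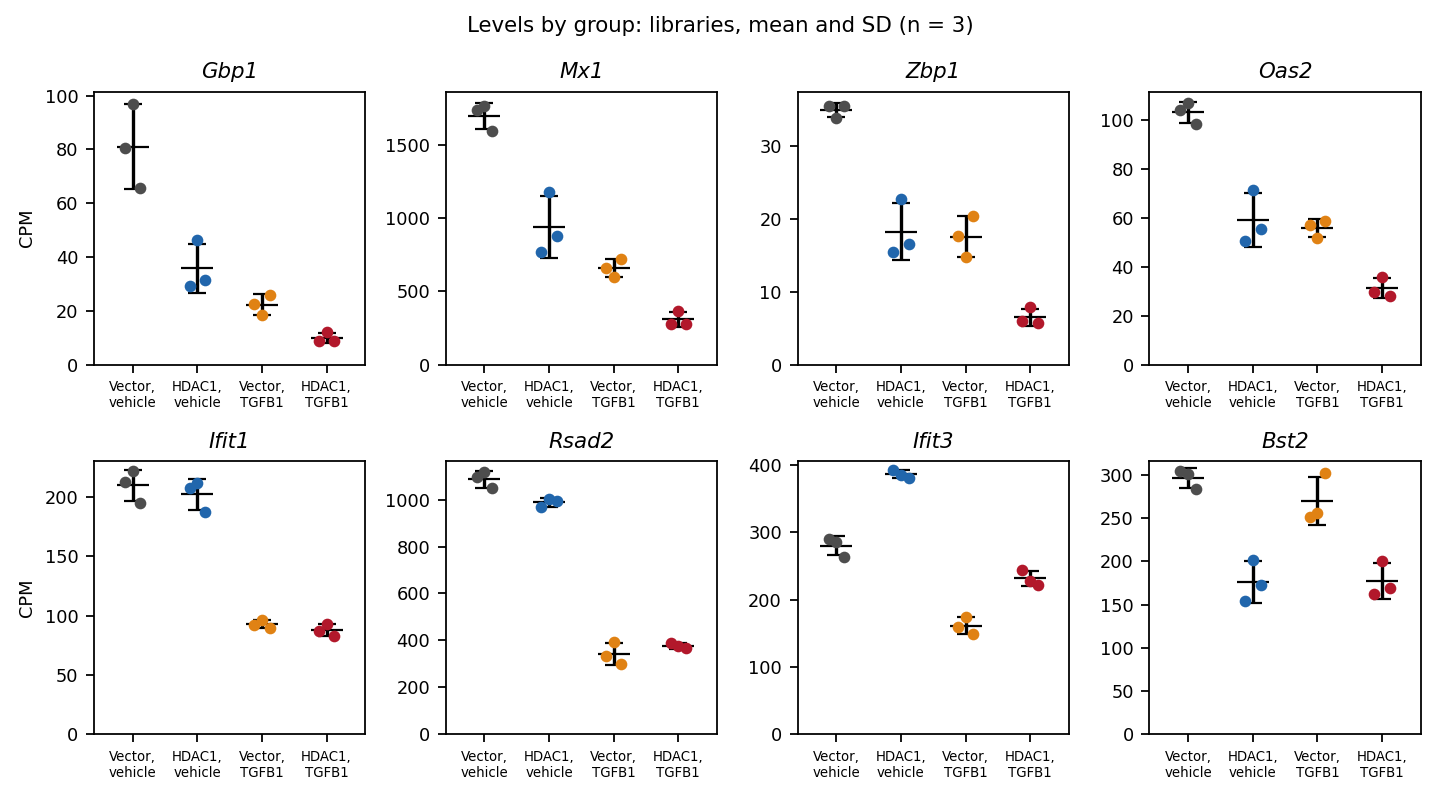
Levels of 8 members by group, in CPM on axes that start at 0. Points are libraries, and horizontal and vertical bars are the mean and SD (n = 3). Gbp1, Mx1, Zbp1 and Oas2 are lowest in the HDAC1 TGFB1 group, Ifit1 and Rsad2 overlap or nearly so with and without HDAC1, Ifit3 is higher with HDAC1, and Bst2 is lower with HDAC1 and overlaps between vehicle and TGFB1 in vector cells.

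In the average effects, the enzymes that attach ISG15 to proteins fell, as did ISG15 itself. Uba7 is the activating enzyme of ISG15, Ube2l6 its conjugating enzyme, Herc6 the main ligase in rodents, and Usp18 the protease that removes it. HDAC1 and TGFB1 each lowered these 5 genes on average. Herc6 was at 426, 429.6 and 391 CPM in the vector vehicle libraries, 293, 315 and 309.8 in the HDAC1 vehicle libraries, 177, 194 and 162 in the vector TGFB1 libraries and 123, 135 and 122 in the HDAC1 TGFB1 libraries. The 4 groups of Herc6 did not overlap, and the average effects were -0.46 ± 0.05 (SE; adjusted p = 2.83e-06) for HDAC1 and -1.25 ± 0.05 (SE; adjusted p = 8.6e-15) for TGFB1. Uba7 was at 203, 188 and 186 CPM in the vector vehicle libraries, 123, 150.0 and 126 in the HDAC1 vehicle libraries, 109, 102 and 109.8 in the vector TGFB1 libraries and 70.5, 81.3 and 69.7 in the HDAC1 TGFB1 libraries. Its groups did not overlap, and the HDAC1 effect was -0.53 in vehicle and -0.54 with TGFB1, while the TGFB1 effect was -0.85 with vector and -0.85 with HDAC1. Its average effects were -0.53 ± 0.05 (SE; adjusted p = 1.75e-06) for HDAC1 and -0.85 ± 0.05 (SE; adjusted p = 2.4e-11) for TGFB1, and with both it stood at 38.4% of the vector vehicle mean. Isg15 averaged 1101 ± 32 CPM (SD, n = 3) in the vector vehicle group and 522 ± 54 in the HDAC1 TGFB1 group, with average effects of -0.30 and -0.77. Ube2l6 (-0.28 and -0.31) and Usp18 (-0.16 and -0.19) changed less. In vehicle alone, the HDAC1 effect was not called for Isg15 or Ube2l6. With TGFB1 it was called for both. Both calls were lost without HDAC1 TGFB1 replicate 1 or 3 and with the heart and brain covariate (adjusted p = 0.0817 to 0.256). Leaving out vector TGFB1 replicate 3 also ended that of Ube2l6. The TGFB1 call of Ube2l6 with vector was lost under 8 of 20 alternatives (adjusted p = 0.0512 to 0.161). The HDAC1 call of Usp18 was lost without vector vehicle replicate 2, HDAC1 vehicle replicate 1 or 3, or HDAC1 TGFB1 replicate 3 (adjusted p = 0.0519 to 0.0682).

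The 4 other members of this group, Trim21, Trim25, Trim14 and Dtx3l, act in ubiquitin signalling, and TGFB1 on average lowered each of them while HDAC1 was called for 0 of the 4. Trim21, a receptor for antibody-coated virus with ligase activity, had effects of -0.66 ± 0.06 (SE; adjusted p = 2e-09) for TGFB1 and -0.01 ± 0.06 (SE; adjusted p = 0.951) for HDAC1, the latter with a 95% interval of -0.12 to 0.11. For Trim25, a ligase that acts on RIG-I, the average effects were -0.28 for TGFB1 and -0.04 for HDAC1. For Dtx3l, the ligase partner of PARP9, they were -0.39 and -0.04. Trim14 was near the limit of detection, from 0.226 to 1.04 CPM over the 12 libraries. Its TGFB1 call (-0.75 ± 0.32 (SE; adjusted p = 0.0492)) was lost without vector vehicle replicate 2 or 3, HDAC1 vehicle replicate 1 or 3, vector TGFB1 replicate 1 or 3, or HDAC1 TGFB1 replicate 2 or 3 (adjusted p = 0.0545 to 0.133). The DESeq2 Wald test, no filter on low counts and the replicate block also ended it (adjusted p = 0.0738, 0.0822 and 0.0686).

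PARP members attach ADP-ribose to proteins, and PARP9 works with DTX3L. All 4 fell with TGFB1, and changes with HDAC1 were small. Parp10 was at 213, 199.6 and 209 CPM in the vector vehicle libraries, 169.9, 197 and 175 in the HDAC1 vehicle libraries, 125, 127 and 125 in the vector TGFB1 libraries and 107, 121 and 121 in the HDAC1 TGFB1 libraries. The groups of Parp10 did not overlap, with average effects of -0.68 ± 0.05 (SE; adjusted p = 6.67e-11) for TGFB1 and -0.15 ± 0.05 (SE; adjusted p = 0.0223) for HDAC1. Parp9 was at 283, 294 and 268 CPM in the vector vehicle libraries, 239, 254 and 240.2 in the HDAC1 vehicle libraries, 228, 231 and 224 in the vector TGFB1 libraries and 221, 229 and 210.4 in the HDAC1 TGFB1 libraries, and its TGFB1 libraries overlapped with and without HDAC1. Its effects were -0.23 ± 0.04 (SE; adjusted p = 6.78e-05) for TGFB1 and -0.13 ± 0.04 (SE; adjusted p = 0.0362) for HDAC1. Parp14 was at 1205, 1219 and 1154 CPM in the vector vehicle libraries, 1004, 1141 and 1098 in the HDAC1 vehicle libraries, 966, 992 and 813 in the vector TGFB1 libraries and 940.4, 949.6 and 889.9 in the HDAC1 TGFB1 libraries, where TGFB1 libraries also overlapped. The average TGFB1 effect on Parp14 was -0.30 ± 0.05 (SE; adjusted p = 4.74e-05), and that of HDAC1 was -0.07 ± 0.05 (SE; adjusted p = 0.381). Parp12 had -0.16 for TGFB1 and -0.13 for HDAC1. The HDAC1 call of Parp10 was lost without vector vehicle replicate 1 or 3, HDAC1 vehicle replicate 1 or 3, vector TGFB1 replicate 2 or HDAC1 TGFB1 replicate 1 (adjusted p = 0.0622 to 0.108). That of Parp9 was lost without any library but HDAC1 vehicle replicate 2, vector TGFB1 replicate 3 or HDAC1 TGFB1 replicate 2 (adjusted p = 0.0599 to 0.145), and with DESeq2 size factors, no filter on low counts and the heart and brain covariate (0.0507 to 0.107).

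Among the 15 other effectors TGFB1 lowered 13 on average and HDAC1 lowered 12. Rsad2 (viperin), a radical enzyme that makes a chain-terminating nucleotide, and Cmpk2, the nucleotide kinase encoded beside it, both fell with TGFB1, and only Cmpk2 of the pair was called for HDAC1, a difference that was not tested. Rsad2 was at 1097, 1116 and 1048 CPM in the vector vehicle libraries, 968, 1002 and 994 in the HDAC1 vehicle libraries, 335, 393 and 301 in the vector TGFB1 libraries and 389, 375 and 366 in the HDAC1 TGFB1 libraries. HDAC1 and vector libraries of Rsad2 overlapped with TGFB1, and in vehicle the HDAC1 libraries were below the vector libraries. The mean of Rsad2 with HDAC1 was 988 CPM against 1087 in vehicle, and 377 against 343 with TGFB1. An average over the 2 treatments joins these differences of opposite direction. Its average HDAC1 effect was -0.00 ± 0.05 (SE; adjusted p = 0.989) with a 95% interval of -0.11 to 0.11, beside -1.53 ± 0.05 (SE; adjusted p = 1.4e-15) for TGFB1. Cmpk2 was at 604, 557 and 579 CPM in the vector vehicle libraries, 449, 529.6 and 485 in the HDAC1 vehicle libraries, 243, 241 and 257 in the vector TGFB1 libraries and 196, 221 and 189 in the HDAC1 TGFB1 libraries. No groups overlapped for Cmpk2, and its average effects were -0.27 ± 0.05 (SE; adjusted p = 0.000747) for HDAC1 and -1.25 ± 0.05 (SE; adjusted p = 1.2e-14) for TGFB1. Lgals9 (galectin-9, a sugar-binding immune regulator) was at 248, 216 and 228 CPM in the vector vehicle libraries, 150.0, 183 and 158 in the HDAC1 vehicle libraries, 101, 109 and 118 in the vector TGFB1 libraries and 67.0, 80.8 and 68.5 in the HDAC1 TGFB1 libraries. Its groups did not overlap either, with effects of -0.55 ± 0.06 (SE; adjusted p = 4.96e-06) for HDAC1 and -1.13 ± 0.06 (SE; adjusted p = 2.41e-12) for TGFB1.

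Bst2 (tetherin), which holds budding virus on the cell surface, followed HDAC1 and was not called for TGFB1. It was at 305, 301 and 283 CPM in the vector vehicle libraries, 154, 201 and 173 in the HDAC1 vehicle libraries, 252, 256 and 302 in the vector TGFB1 libraries and 162, 201 and 169 in the HDAC1 TGFB1 libraries. Every HDAC1 library was below every vector library, while vehicle and TGFB1 libraries overlapped in vector cells and in HDAC1 cells. The average HDAC1 effect was -0.68 ± 0.07 (SE; adjusted p = 3.94e-06), and the average TGFB1 effect was -0.06 ± 0.07 (SE; adjusted p = 0.461) with a 95% interval of -0.20 to 0.08. Ifi27, a mitochondrial protein linked to cell death, was likewise called lower for HDAC1 and not called for TGFB1 in the average effects, by a smaller size. Its level was 556, 569.9 and 550.3 CPM in the vector vehicle libraries, 487, 543 and 465 in the HDAC1 vehicle libraries, 549, 529 and 660.2 in the vector TGFB1 libraries and 466, 493 and 460.0 in the HDAC1 TGFB1 libraries, and vector libraries with and without TGFB1 overlapped. The average effects on Ifi27 were -0.23 ± 0.05 (SE; adjusted p = 0.00504) for HDAC1 and -0.01 ± 0.05 (SE; adjusted p = 0.874) for TGFB1, the latter with a 95% interval of -0.12 to 0.10. Taken separately, its HDAC1 effect was not called in vehicle (-0.17, adjusted p = 0.168). With TGFB1 it was called (-0.29, adjusted p = 0.0274), and that call was lost without vector vehicle replicate 3, vector TGFB1 replicate 3 or HDAC1 TGFB1 replicate 1 or 3 (adjusted p = 0.0515 to 0.134) and with the heart and brain covariate (0.35).

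The remaining effectors changed by less than Rsad2 and Cmpk2 with TGFB1. Isg20, an exonuclease that degrades RNA, had average effects of -0.52 for HDAC1 and -0.45 for TGFB1, and Lgals3bp, a secreted glycoprotein, had -0.46 and -0.22. Rtp4 (-0.33 and -0.51), Tor3a (-0.36 and -0.42), Xaf1 (-0.30 and -0.33), Ifi35 (-0.23 and -0.36) and the nuclear body protein gene Sp100 (-0.21 and -0.41) were also lowered by both. Ifi44 was lowered by both (-0.18 and -0.48), and its HDAC1 call was lost without vector vehicle replicate 2, HDAC1 vehicle replicate 1 or 3, or HDAC1 TGFB1 replicate 3 (adjusted p = 0.0518 to 0.0671). Helz2 and Phf11 were called for TGFB1 (-0.20 and -0.50) and not for HDAC1 (-0.08 and -0.24).

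Whether the fall with HDAC1 depended on TGFB1 was tested by the interaction, the HDAC1 effect with TGFB1 minus that in vehicle. Under this test a value of 0 means that the effects add on the log2 scale, so that the fractions that remain multiply. The interaction was called for 0 of the 48 by edgeR and for 0 by DESeq2, where 0.479% of all genes tested were called by edgeR (0.137% with higher values). At an unadjusted p under 0.05 it reached 7 of the 48, namely Samhd1, Ifit2, Gbp5, Dtx3l and Rsad2 with positive values and Zbp1 and Isg20 with negative values. The share of all genes tested at this unadjusted threshold was not counted, so the 7 have no background here. The smallest adjusted p was 0.133. The median was 0.07, with 27 positive and 21 negative values. The precision of this result varied between genes: the 95% interval lay within 0.5 on either side of 0 for 40 of 48 and within 1 for 47, and the median width to either side was 0.222. Intervals that reached beyond 0.5 were those of Samhd1, Zbp1, Gbp1, Gbp5, Mx1, Trim14, Isg20 and Phf11. For Zbp1 the interval was -0.91 to -0.03, for Isg20 -0.68 to -0.12, for Gbp5 0.14 to 0.61 and for Samhd1 0.13 to 0.61. For Uba7 it was -0.23 to 0.22, for Herc6 -0.25 to 0.16 and for Gbp2 -0.31 to 0.22. Without vector vehicle replicate 3 the interaction was called for 2 members (Ifit2 and Gbp5), and with no filter on low counts it was called for 1 (Isg20). With the heart and brain covariate it was called for 0 of all 14601 genes tested.

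**Figure D4:**
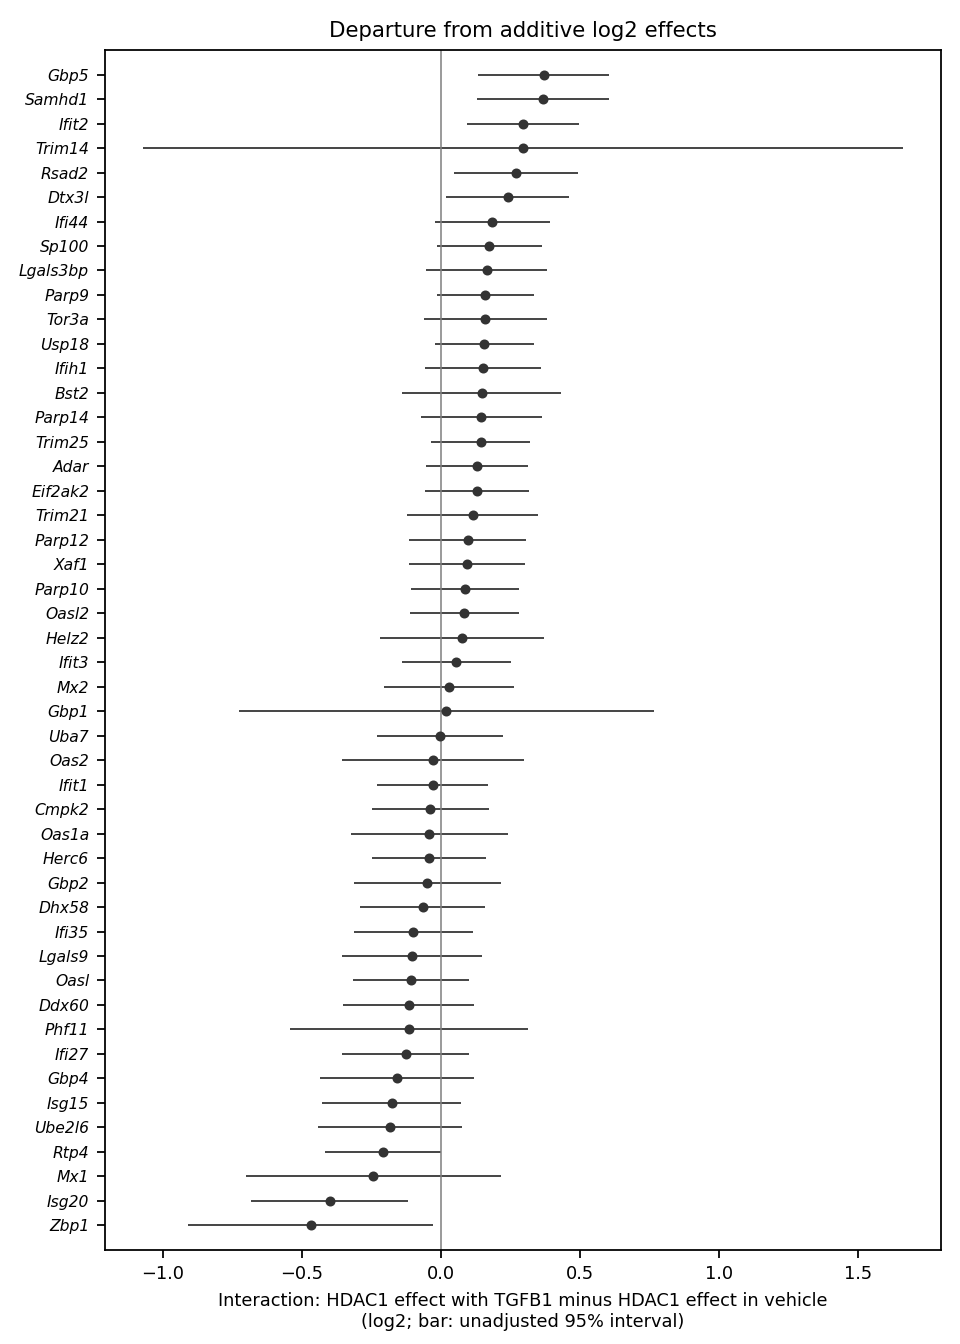
Interaction of HDAC1 and TGFB1 for the 48 genes, in log2 units (horizontal axis), sorted by value. Points are estimates and bars are unadjusted 95% intervals. The intervals of 41 of 48 genes include 0, those of Gbp5, Samhd1, Ifit2, Rsad2 and Dtx3l lie above it, those of Isg20 and Zbp1 below it, and that of the rarely counted Trim14 is the widest.

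Upstream genes of the pathway were read from a list of 21 interferon, receptor, kinase, STAT, IRF and sensor-adaptor genes, all tested. HDAC1 on average lowered 6 (Ifnar1, Irf7, Irf9, Stat2, Sting1 and Tlr3) and raised 1 (Ifnb1), and TGFB1 on average lowered 17 and raised 1 (Cgas). Of all genes tested, 10.7% were lower with HDAC1 on average and 29.9% with TGFB1, and 9.51% and 30.9% were higher. HDAC1 lowered 5 of the 21 in vehicle and 3 with TGFB1, where 7.32% and 4.36% of all genes were called lower. The interaction was called for 0 of the 21 by edgeR. Irf7, the factor that amplifies interferon production, was at 2897, 2852 and 2748 CPM in the vector vehicle libraries, 1612, 1951 and 1653 in the HDAC1 vehicle libraries, 1967, 1908 and 2259 in the vector TGFB1 libraries and 1086, 1326 and 1143 in the HDAC1 TGFB1 libraries. The average effects on Irf7 were -0.75 ± 0.06 (SE; adjusted p = 2.17e-07) for HDAC1 and -0.51 ± 0.06 (SE; adjusted p = 2.83e-07) for TGFB1. Stat2, a part of the complex that binds the ISRE, had average effects of -0.37 ± 0.05 (SE; adjusted p = 3.22e-05) for HDAC1 and -0.75 ± 0.05 (SE; adjusted p = 4.5e-11) for TGFB1. Those for its partner Irf9 were -0.13 ± 0.04 (SE; adjusted p = 0.0329) and -0.26 ± 0.04 (SE; adjusted p = 1.78e-05). The HDAC1 call of Irf9 was lost with no filter on low counts, with a replicate block (adjusted p = 0.104 and 0.0576) and when any library but HDAC1 vehicle replicate 2, vector TGFB1 replicate 1 or 3, or HDAC1 TGFB1 replicate 2 was left out (adjusted p = 0.0513 to 0.145). That of Tlr3 was lost under 17 of 19 alternatives (adjusted p of at most 0.169).

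Ifnb1, which encodes interferon beta itself, went the other way with HDAC1. Its level was 5.65, 6.20 and 5.29 CPM in the vector vehicle libraries, 13.5, 11.1 and 10.7 in the HDAC1 vehicle libraries, 4.66, 5.65 and 6.25 in the vector TGFB1 libraries and 14.1, 11.8 and 11.7 in the HDAC1 TGFB1 libraries. Every HDAC1 library was above every vector library, and vehicle and TGFB1 libraries overlapped. HDAC1 raised Ifnb1 by 1.05 ± 0.13 (SE; adjusted p = 2.74e-05) in vehicle and by 1.18 ± 0.13 (SE; adjusted p = 5.31e-05) with TGFB1, while its average TGFB1 effect was 0.02 ± 0.09 (SE; adjusted p = 0.903). In the HDAC1 libraries the ligand transcript was higher while 33 of 48 effector genes were lower on average and Ifit3 was higher.

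A further list named 31 other interferon-induced genes, of which 22 were tested. Within each treatment, HDAC1 lowered 17 of the 22 in vehicle (median -0.32) and 5 with TGFB1 (median -0.15). Of all genes tested, 7.32% and 4.36% were called lower in these comparisons. All 22 were lowered by TGFB1 on average and 18 by HDAC1, with 0 raised, where 29.9% and 10.7% of all genes tested were called lower. Those with the smallest p for HDAC1 were Ifitm3 (-0.53 ± 0.06 (SE; adjusted p = 5.74e-06)), which blocks virus entry, Ifi44l (-0.45 ± 0.06 (SE; adjusted p = 3.22e-05)), the GTPase gene Ifi47 (-0.38 ± 0.05 (SE; adjusted p = 4.08e-05)) and the immunoproteasome gene Psmb9 (-0.61 ± 0.09 (SE; adjusted p = 0.000397)). For TGFB1 they were the chemokine gene Cxcl10 (-2.11 ± 0.06 (SE; adjusted p = 1.43e-17)), Gbp7 (-2.58 ± 0.11 (SE; adjusted p = 1.7e-14)), Ifi47 (-0.95 ± 0.05 (SE; adjusted p = 1.94e-12)) and Gbp6 (-1.67 ± 0.11 (SE; adjusted p = 3.98e-11)).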

How the data were processed

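The authors deposited raw counts per gene and a table of normalized counts for 12 libraries. Per the submitters' processing notes, Trim Galore 0.6.7, featureCounts (Subread 2.0.1) and DESeq2 1.44 were used. The notes name the mouse build mm10, but the gene identifiers in the deposited tables are those of rat. The aligner and the handling of strand and of reads that fit several genes are not given in the sources used here. The normalized signal deposited by the authors was found to be the raw count divided by 1 constant per library, and was used to find members and symbols.

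Groups were taken from the titles, because the treatment field is a numbered series of names. The members, lists and naming rule were chosen with earlier results of these data known. Some listed genes are not reported here and are left out of the counts over their lists. Raw counts of 43360 genes were reduced by filterByExpr to 14601 genes, which hold 99.879% or more of the counts of each library. After TMM scaling, a robust quasi-likelihood fit (edgeR 4.0.16, R 4.3.3, limma 3.58.1) had 1 mean per group, 8 residual degrees of freedom and a common biological coefficient of variation of 7.61%. Tests were two-sided, and p-values were adjusted over all genes tested. The standard error is the size of the log2 fold change divided by the square root of the F value, and intervals are 95% and unadjusted. CPM values use the scaled library sizes. The steps were run on simulated data with known changes between HDAC1 and vector libraries only. No TGFB1 effect and no interaction was simulated, so recovery of those was not tested.

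Values in every library are given for the 2 members of each role group with the smallest adjusted p for each average effect, for members called higher, and for Gbp1, Mx1 and Ifi27, chosen after their values were seen. Promoters are RefSeq windows on GRCr8. Alternatives were other scalings, DESeq2 1.42.0, other filters on low counts, fits to the groups compared alone, a replicate block, the heart and brain covariate, and leaving out each library.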

Additional observations from a re-analysis of the deposited data

Results flagged for a closer look

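Cxcl10, a chemokine gene of the further list and not 1 of the 48, had HDAC1 effects in vehicle and with TGFB1 that differed from each other. Its level was 1577, 1715 and 1459.6 CPM in the vector vehicle libraries, 1328, 1245 and 1241 in the HDAC1 vehicle libraries, 281, 325 and 299 in the vector TGFB1 libraries and 389.7, 331 and 352 in the HDAC1 TGFB1 libraries. In vehicle all HDAC1 libraries were below all vector libraries, and with TGFB1 all were above them. The interaction was 0.56 ± 0.11 (SE) on the log2 scale, with an adjusted p of 0.0262 by the edgeR quasi-likelihood test, where 0.137% of all genes tested were called higher. The HDAC1 effect was -0.32 (adjusted p = 0.00667) in vehicle and 0.24 (adjusted p = 0.0586) with TGFB1. Under 19 alternatives the interaction ran from 0.49 to 0.62. The call was lost with the heart and brain covariate (0.53, adjusted p = 0.565) and without vector vehicle replicate 2, HDAC1 vehicle replicate 3, vector TGFB1 replicate 1 or HDAC1 TGFB1 replicate 1 or 3 (adjusted p = 0.0627 to 0.103).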

How the results depend on the processing

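Over the single genes and comparisons, 7246 values under the alternatives stayed on their side of the threshold, 244 lost the call and 37 gained it. Of 5198 values for called results 0 changed sign, and of 2329 for results not called 117 did. Members lowered by HDAC1 numbered 17 to 30 in vehicle and 12 to 25 with TGFB1 when 1 library was left out, against 27 and 24. With the heart and brain covariate, 8 members were lowered by HDAC1 in the presence of TGFB1. The interaction was called for 0 to 2 members with 1 library left out and for 1 with no filter on low counts. Counts for TGFB1 ran from 40 to 45 with vector and from 36 to 43 with HDAC1, those for both factors against neither from 45 to 47, and those for the average effects from 27 to 34 (HDAC1) and 45 to 46 (TGFB1).

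With 1 library left out, the median log2 fold change ran from -0.29 to -0.20 for HDAC1 in vehicle, -0.31 to -0.21 for HDAC1 with TGFB1, -0.59 to -0.50 for TGFB1 with vector, -0.60 to -0.49 for TGFB1 with HDAC1 and -0.86 to -0.74 for both against neither. It ran from -0.28 to -0.21 for the average HDAC1 effect, -0.55 to -0.48 for the average TGFB1 effect and 0.016 to 0.12 for the interaction. Upper quartile scaling gave -0.55, -0.62, -0.82 and -0.55 for TGFB1 with vector, TGFB1 with HDAC1, both against neither and the average TGFB1 effect. The ISRE share was 8.33% with the wider spacing. The cause of these shifts was not tested. No scaling moved the median of all genes by more than 0.1.

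Correlations of the deviations of same-numbered libraries ran from -0.0875 to 0.118, with 0.115 for replicate 2 of the HDAC1 groups. They were not over 0.1 in every pair, so the numbers were not taken to pair the libraries. Between the HDAC1 groups they were 0.0898 for replicate 1 and -0.00428 for replicate 3. Most members were highest in replicate 2 of both HDAC1 groups. Whether same-numbered HDAC1 libraries came from 1 transfection is not given in the labels, and this cut-off cannot decide it. If they did, the standard errors and p-values of the average HDAC1 effects would be too small. With a replicate block, 25 and 24 members were lowered by HDAC1 in vehicle and with TGFB1, 43 and 39 by TGFB1 with vector and with HDAC1, 46 by both against neither, and 33 and 45 in the average effects, and the interaction was called for 0. Fits to 2 groups alone cannot give the interaction or the averages. Depth limits Trim14, which reached at most 1.04 CPM.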

Other observations

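In the HDAC1 vehicle group, 42 of the 48 members (87.5%) were highest in replicate 2, against 34% of all 14601 genes tested. In the HDAC1 TGFB1 group 38 members (79.2%) were highest in replicate 2, against 34.1% of all genes. Both held for 36 members (75%) and for 16.1% of all genes. In each of these groups replicate 2 was also the library with the lowest Hdac1 (375 CPM beside 428 and 460.4 in vehicle, 416 beside 501 and 474 with TGFB1) and the lowest Hdac1l (852 CPM beside 1297 and 1367, and 802 beside 1211 and 1257). Of the other 12 members, Ifit3, Eif2ak2, Dtx3l and Trim14 were highest in replicate 2 in neither group. This was noticed in the data, and members of 1 library are not independent. The part of the Hdac1 and Hdac1l levels in the members' levels was not tested.

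In vector vehicle replicate 1, the library with the fewest heart and brain transcripts, 20 members were the highest and 1 the lowest of its group, and the median member stood 0.03 above the mean of the other two libraries on the log2 scale. The same counts were not made over all genes tested, so no background stands beside them.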
